A study of Mus musculus with 6 samples.

Results

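Microglia and macrophages made up 125 of the 45473 nuclei in the deposited tables of 6 mouse cerebella, a share of 0.275%. The exact 95% binomial interval of 0.229 to 0.327% covers counting error over pooled nuclei and not the spread between mice. By mouse the share ran from 0.156 to 0.444%. The deposited tables, from which debris had been removed, hold fewer nuclei than the study counted, for a reason not given in the sources used here. Every share below is of the nuclei in them. A nucleus was counted as a member when the cell type label that the authors deposited for it, set with SingleR against a reference of cerebellar expression profiles, contained the stem of microglia or of macrophage. All 125 carried the same label, which joins the names *C1qb*, *Mrc1* and *Tmem119* and so does not part microglia from macrophages.

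The nuclei came from whole cerebella of 12-week-old mice. There were 3 mice of the strain *Pcp2-ATXN1[82Q]* (SCA1 below) and 3 wild-type C57Bl6 littermates (WT), and each mouse gave 1 library. Per the methods, the SCA1 line had been backcrossed onto the C57Bl6 background. The transgene is a mutant human *ATXN1* whose CAG tract is lengthened. It is driven by the *Pcp2* promoter and so by Purkinje cells, and microglia are not meant to express it. The comparison asks how immune cells that do not express the mutant protein differ when Purkinje cells do.

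Microglia are the resident macrophages of the brain parenchyma, seeded from the yolk sac and kept alive by signals through the receptor *Csf1r*. They survey their surroundings with purinergic receptors such as *P2ry12*, respond to neuronal fractalkine through *Cx3cr1* and make the C1q proteins of the complement cascade. A related lineage, the border-associated macrophages, lines the meninges, vessels and choroid plexus and is known by *Mrc1*, *Cd163* and *Lyve1*.

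The libraries were not alike. Deposited totals ran from 18916647 to 98366627 UMIs (unique molecular identifiers, the counted RNA molecules) per mouse. The deposited tables of SCA1 mouse 1 and WT mouse 1 bear library numbers apart from the other 4, and these mice were treated as 1 library set, inferred to be a sequencing run of its own. As a check of the genotypes, Purkinje-labelled nuclei held human *ATXN1* in 10 of 65, 10 of 52 and 11 of 29 cases for SCA1, and for WT in 0 of 76, 0 of 41 and 0 of 29. No member nucleus had a UMI of it. Whole libraries held 57, 60 and 60 UMIs of it in SCA1 and 37, 17 and 15 in WT. At such low counts a 0 in members does not show that they lack it. Between 7 and 44 cell barcodes were shared by any pair of libraries, and no member barcode was shared.

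By mouse, the members were 17 of 10897, 32 of 7215 and 26 of 6834 nuclei for SCA1 and 23 of 10463, 19 of 6710 and 8 of 3354 for WT. These are shares of 0.156%, 0.444% and 0.380% in SCA1 and of 0.220%, 0.283% and 0.239% in WT. SCA1 mouse 1 had the lowest share of all and SCA1 mouse 2 the highest, so the WT mice lay inside the range of the SCA1 mice. The mean was 0.327% ± 0.151 (SD, n = 3) in SCA1 and 0.247% ± 0.0325 (SD, n = 3) in WT. The difference of 0.0795 percentage points was smaller than the spread among SCA1 mice (two-sided exact permutation test, p = 0.4, where the smallest p this design allows is 0.1). Within the first library set SCA1 was lower by 0.0638 points, and within the second it was higher by 0.151 points, with 1 and 2 mice per genotype. A lower share could mean fewer such cells or fewer of their nuclei recovered, which cannot be told apart here.

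**Figure D1:**
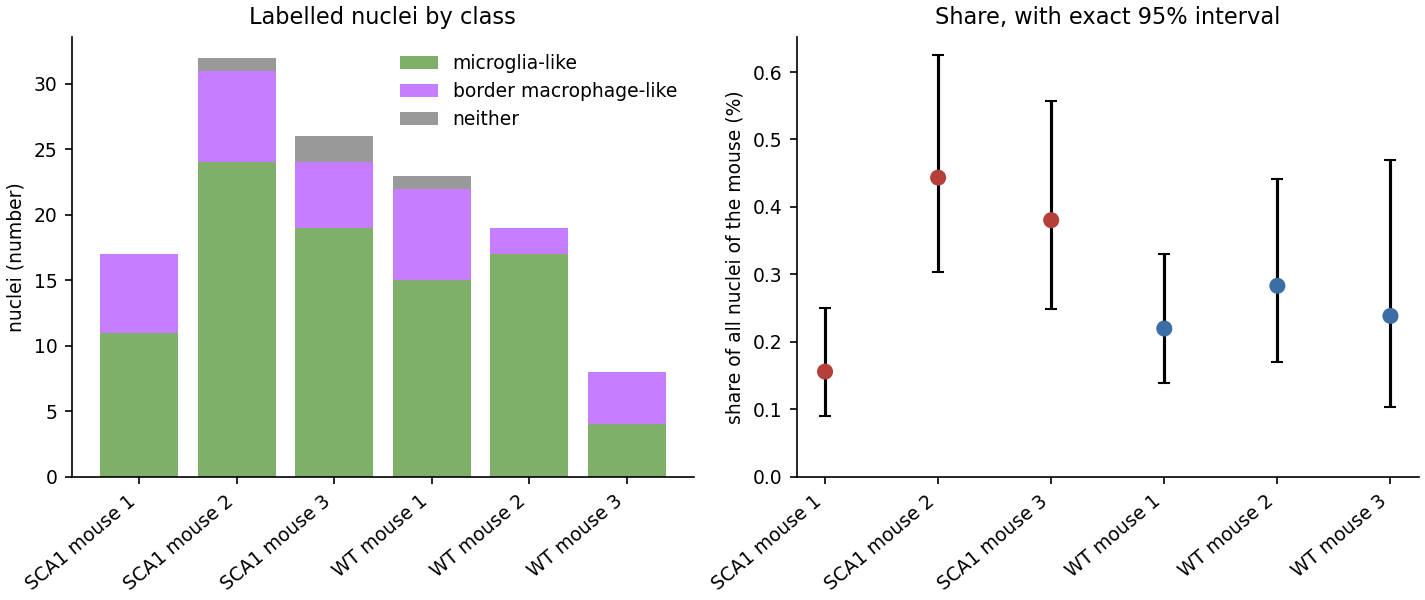
Left, number of nuclei labelled microglia or macrophage in each mouse, stacked by expression class; right, their share of all nuclei of that mouse in percent, with the exact 95% binomial interval (red, SCA1; blue, WT). The 3 WT shares lie between 0.220% and 0.283%, and the SCA1 shares spread from 0.156% to 0.444%.

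The label was compared with *Csf1r*, *C1qb* and *Cx3cr1*, which is no independent test, since it was set from expression and is named in part for *C1qb*. At least 1 UMI of *Csf1r* was found in 108 of the 125 members (86.4%), of *Cx3cr1* in 102 (81.6%) and of *C1qb* in 79 (63.2%). In granule neurons, which should lack all 3, the shares averaged 1.69%, 4.38% and 3.39% over mice, at median depths of 2156 to 6948 UMIs against 1706 to 6000 for the members. Only 5 members had no UMI of the 3 genes, and 60 had all 3. Nuclei were also thinned to 1000 UMIs, which left out no member. For granule neurons this used a random draw of up to 1000 nuclei per mouse among those of at least 1000 UMIs. The shares of nuclei with *Csf1r*, *Cx3cr1* and *C1qb* then averaged 53.0%, 55.4% and 30.0% in members and 0.217%, 0.783% and 0.633% in granule neurons. The granule neuron gene *Gabra6* was found in 36.8% of members and in 92.7% of granule neurons.

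The label did not take in every nucleus rich in these markers. Another 81 nuclei held 5 or more UMIs of the 3 genes together, against 90 of the members. Of these, 60 were labelled as granule neurons and 37 lay in the Seurat cluster that held most members of their mouse. They numbered 30, 10 and 6 for SCA1 and 32, 1 and 2 for WT, so most came from the first library set. In the 2 mice of that set their median depth was 9799 (SCA1) and 8128 UMIs (WT), above the 5667 and 6000 UMIs of the members. There, 12 granule neuron markers took a median of 1.15% and 0.931% of their UMIs against 0.185% and 0.269% in the members. With them added, the shares were 0.494% ± 0.0786 in SCA1 and 0.374% ± 0.131 in WT (SD, n = 3, exact permutation p = 0.3). The cutoff of 5 UMIs was not adjusted for depth, so these shares depend on it. In WT mouse 2, the shallowest library, only 5 of the 19 members themselves reached the cutoff. Members held 15.1% of all UMIs of the 3 genes, from 7.08% in SCA1 mouse 1 to 32.1% in SCA1 mouse 3.

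Members held 1706 to 6000 UMIs per nucleus as a median by mouse. The medians were 5667, 4079 and 5280 in SCA1 and 6000, 1706 and 4214 in WT, with WT mouse 2 far below the rest. Means were 5009 ± 828 and 3973 ± 2157 (SD, n = 3, exact permutation p = 0.7), and without WT mouse 2 the difference turned from 1035 to -98.5 UMIs. Summed over nuclei, the members gave 102354, 149544 and 161011 UMIs in SCA1 and 137692, 34474 and 33326 in WT. The last 2 sums are the shallowest and set how low a gene can be measured in WT.

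The members were next described by the genes with the highest ratio of their level to that in other nuclei. Levels are given as CPM, the UMIs of a gene summed over the nuclei and scaled to a common total per mouse. The order below is a description, since the label was set from expression, and covers the 976 of 16041 detected genes that had at least 100 UMIs in members and 5 in every mouse. Among these *Stab1*, a scavenger receptor, led with 777 ± 114 CPM (SD, n = 6 mice) in members and 0.810 CPM in all other nuclei, a ratio of 960. *Mrc1*, the mannose receptor, followed at 971 ± 229 CPM and 931 times the other nuclei. *Inpp5d*, the inositol phosphatase SHIP1 that restrains immune receptor signalling, stood at 1727 ± 573 CPM, 925 times the other nuclei, and was found in 92.0% of members.

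Other leaders fell into a few roles. *Ikzf1*, the haematopoietic transcription factor Ikaros, reached a ratio of 863, and the kinase *Syk*, which passes on signals of immune receptors, 864. *Blnk*, an adaptor downstream of *Syk*, had a ratio of 693, and *Ptprc*, which encodes the pan-leukocyte surface phosphatase CD45, 643. Among surface molecules were the costimulatory ligand *Cd86* at 842, the sialic acid receptor *Cd33* at 658 and the purinergic receptor *P2ry6* at 780. Regulators of the actin skeleton were present with *Fgd2* at 836, *Arhgap25* at 700 and *Dock8* at 680. The list also held 2 gene models without a characterised product, *Gm10790* and *Gm2629*. In all 20 genes every mouse had at least 101 CPM in members.

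**Figure D2:**
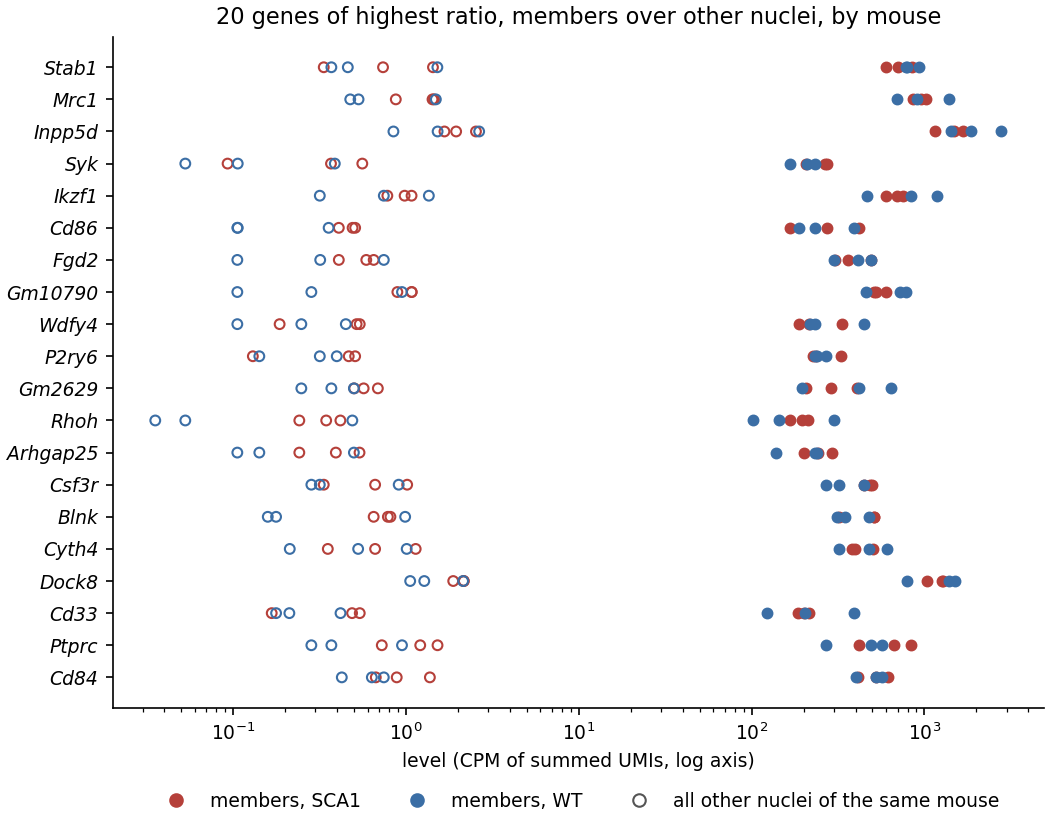
Level of the 20 genes with the highest ratio of members to other nuclei among the 976 considered, in CPM on a log axis; each filled point is the sum over members of 1 mouse and each open point the sum over all other nuclei of that mouse (red, SCA1; blue, WT). Filled points lie near 101 to 2791 CPM and open ones near or below 3 CPM.

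Macrophage promoters often carry purine-rich sites of the ETS factor PU.1, encoded by *Spi1*, the master regulator of the lineage. The letters GAGGAAG were searched on both strands in the 250 bases upstream of each gene start in RefSeq windows of GRCm38.p6, the build of the files. These letters stood in 5 of the 17 leading genes with a window (29.4%), in 5 of 13 border macrophage genes, in 3 of 17 homeostatic microglia genes and in 12.0% of all 27025 genes. Shown are stretches from *Mrc1* and *Inpp5d*, which are both among the 3 leading genes, and from *F13a1*, a border macrophage gene treated below. *Mrc1* held the letters at 168 and at 36 bases before its start, and the farther one is shown. They lie at chr2:14229199-14229299 on the plus strand, chr1:87620245-87620311 on the plus strand and chr13:37050257-37050357 on the minus strand, and the capitals mark the letters searched or their reverse complement.
Mrc1: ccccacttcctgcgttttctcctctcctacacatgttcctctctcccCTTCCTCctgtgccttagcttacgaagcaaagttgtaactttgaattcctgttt
Inpp5d: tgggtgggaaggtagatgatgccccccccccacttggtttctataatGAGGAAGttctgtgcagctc
F13a1: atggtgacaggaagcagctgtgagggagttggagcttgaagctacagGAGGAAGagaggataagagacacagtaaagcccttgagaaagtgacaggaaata
A match of 7 letters is a description of these windows and not a binding site. *Spi1* itself was found in 65.6% of members and 0.294% of granule neurons.

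Within the label, the nuclei fell into 2 kinds. Each was placed by the larger of 2 sums of UMIs, over 5 microglia genes (*P2ry12*, *Tmem119*, *Sall1* and *Siglech* among them) and over 7 border macrophage genes (*Mrc1*, *Cd163*, *F13a1*, *Pf4*, *Lyve1*, *Ms4a7*, *Cbr2*), with at least 2 UMIs required. This gave 90 microglia-like and 31 border macrophage-like nuclei and 4 that were neither. The split was made after values had been seen and gets no test. It left few nuclei between, since 85 of the 90 microglia-like nuclei had no UMI of the border genes, and border macrophage-like nuclei held a median of 45 and at least 9. Only 6 nuclei had between 25 and 75% of both sums in the border genes.

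**Figure D3:**
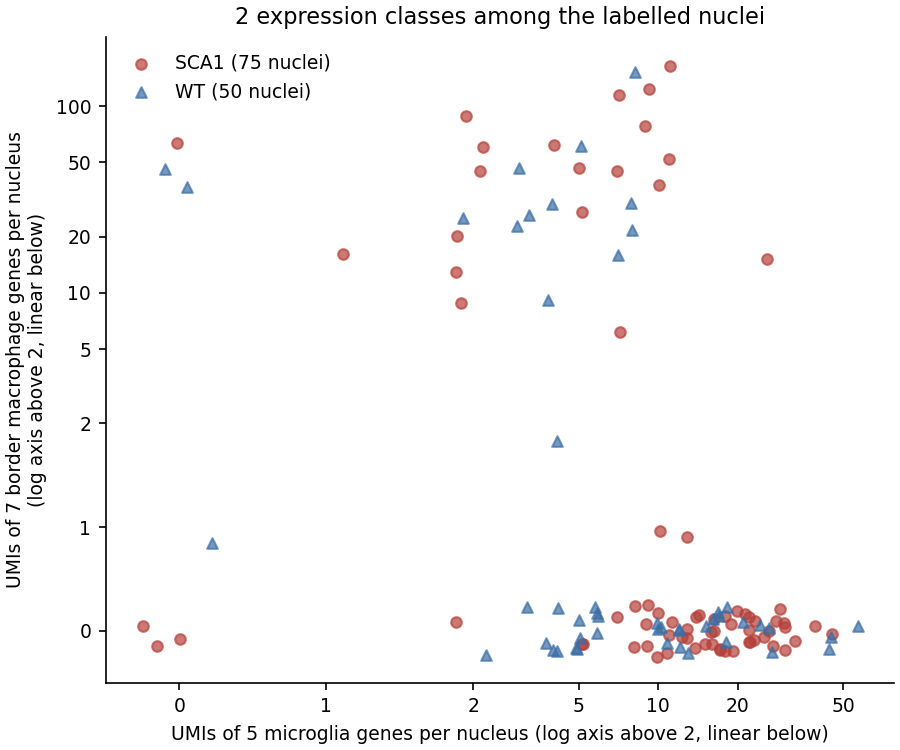
Each point is 1 of the 125 labelled nuclei, placed by its UMIs of 5 microglia genes and of 7 border macrophage genes; both axes are logarithmic above 2 and linear below, with a small random shift to part equal values. Most nuclei lie along the lower edge at 0 border UMIs, and a second group of 31 lies above it at 9 to 163.

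Border macrophage-like nuclei were present in every mouse, as 6 of 17, 7 of 32 and 5 of 26 members in SCA1 and 7 of 23, 2 of 19 and 4 of 8 in WT. Their share of the members was 25.5% ± 8.61 in SCA1 and 30.3% ± 19.7 in WT (SD, n = 3). WT held both the lowest share (10.5%) and the highest (50.0%), and each rests on few nuclei. As a share of all nuclei the microglia-like class was 0.237% ± 0.121 in SCA1 and 0.172% ± 0.0715 in WT, and the border class 0.0751% ± 0.0210 and 0.0720% ± 0.0449.

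Genes outside the split differed between the classes too, here over 418318 UMIs of microglia-like and 182406 of border macrophage-like nuclei. *Colec12*, a scavenger lectin, had 3 UMIs in microglia-like and 137 in border nuclei. *Dab2*, an endocytic adaptor, had 25 and 429, and *Rbpj*, the nuclear effector of Notch signalling, 60 and 596. *Igf1*, the insulin-like growth factor, had 9 and 60. *Apoe*, the lipid carrier, reached 1494 CPM in microglia-like and 6009 CPM in border nuclei and was higher in the latter in 6 of 6 mice, as was the lysozyme gene *Lyz2* at 143 and 614 CPM.

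The opposite pattern marked the parenchymal cells. *Csmd3*, which encodes a large membrane protein with complement control repeats, had 1086 UMIs in microglia-like and 2 in border nuclei. *Nav3*, a cytoskeletal regulator, had 1037 and 4, *Plxdc2*, a membrane receptor, 1861 and 33, and the lipid flippase *Atp8a2* 344 and 1. *Sall3*, a zinc finger factor related to the microglial identity factor *Sall1*, had 49 and 0. *Tgfbr1*, the receptor kinase for TGF-β that keeps microglia in their resting state, stood at 2118 and 400 CPM, and *Selplg*, the P-selectin ligand, had 334 and 11 UMIs. *Tgfbr1* and *Sall3* were higher in microglia-like nuclei in 6 of 6 mice.

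Other genes of the lineage were nearer in level. *Runx1* was at 990 CPM in microglia-like and 1031 in border nuclei, *Ptprc* at 552 and 477, *Spi1* at 268 and 225 and *Csf1r* at 736 and 548. *C1qb* was at 308 and 406 CPM. *F13a1*, the clotting factor XIII subunit, had 0 UMIs in microglia-like and 736 in border nuclei, and *Cd163*, the haemoglobin scavenger, 0 and 117, both as used for the split.

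The UMIs of MHC class II genes lay in few nuclei. *Cd74*, the invariant chain of MHC class II, had 264 UMIs, of which 258 lay in 10 nuclei (7 border macrophage-like, 1 microglia-like and 2 neither). These were 6 nuclei in SCA1 and 4 in WT. WT mouse 2 had 0 *Cd74* UMIs. A single nucleus of SCA1 mouse 3 held 105, along with 58 of the 110 *H2-Aa* UMIs and 30 of the 43 UMIs of *Ccr2*, a chemokine receptor of monocytes. It had 21148 UMIs, of which 227 were of granule neuron markers. This nucleus is the microglia-like one, by only 7 UMIs of the microglia genes against 6 of the border genes, so its class is not settled. A border macrophage-like nucleus of SCA1 mouse 2 with 22 *Cd74* UMIs had 16 UMIs of the border genes. It had 0 of *Csf1r*, *C1qb* and *Cx3cr1* and 7 of the neutrophil and monocyte list.

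Other immune cells were looked for by their markers. The 4 nuclei of neither class included 3 with at least 10 UMIs of a lymphocyte list, all from SCA1 mice, and *Skap1*, a T cell adaptor, had 26 UMIs in 2 of them. *Cd3e*, *Cd8a* and *Klrb1c*, which define T cells, cytotoxic T cells and natural killer cells, had 0 UMIs among 618401, which allows up to 4.85 CPM. The neutrophil genes *S100a8*, *S100a9* and *Ly6g* were also at 0. The summed level of the 17 lymphocyte genes was 9.77 to 317 CPM in SCA1 and 14.5 to 30.0 CPM in WT. That of 11 neutrophil and monocyte genes was 39.1, 73.6 and 193 CPM in SCA1 and 14.5, 0 and 0 CPM in WT. Of the 11 genes, 8 were at 0. WT mice 2 and 3 have the shallowest sums, so their 0 does not settle whether the genotypes overlap. *Ccr2* gave 43 UMIs of this list, 30 of them in the nucleus of 21148 UMIs above.

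Genes of activation ranged widely in level. Of 29 disease-associated microglia genes that could be looked up, 27 were detected, with a summed level of 4149 to 10835 CPM in SCA1 and 4931 to 8236 CPM in WT. *Trem2* was found in 50.4% of members and, on average over mice, 1.05% of granule neurons. *Apoe* was found in 84.8% and 77.9%, so a UMI of it tells little about a nucleus. Of other members of the list, the lysosomal proteases *Ctsd* and *Ctsb* had 275 and 259 UMIs. *Cst7* and *Gpnmb* had 0 UMIs and *Itgax* 2, and of the cytokines *Il1b* and *Il10* had 0, *Tnf* 4 and *Il6* 5. *Nos2*, *Ptgs2* and *Cxcl10* were at 0, as was the complement component *C3*. A count of 0 allows a level of up to 4.85 CPM. Of 16 cell cycle genes, 7 were at 0 and *Mki67* had 2 UMIs.

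The main comparison asked which genes differed between SCA1 and WT in the members. No gene passed: of 3844 genes tested on the sums per mouse, 0 (0%) had an adjusted p of at most 0.05 in edgeR's quasi-likelihood test with library set as a term. DESeq2 and limma-trend called 0 as well. Of the 3844 genes, 312 (8.12%) did not overlap between genotypes. At an unadjusted p under 0.05 there were 108 genes (2.81%) in edgeR, 52 in DESeq2 and 138 in limma-trend. In 192 genes (4.99%) all 3 SCA1 mice lay above all WT mice and in 120 (3.12%) below. In simulated counts of the same depth edgeR recovered 26.1% of changes of 1.5 on the log2 scale and 91.3% of changes of 3.0, and missed the rest. DESeq2 recovered 13.1% and 82.6%. These shares cover only changed genes that passed the filter. The counts were drawn with 1 dispersion (spread between mice) for all genes and no difference between library sets. UMIs gathered in single nuclei were not modelled, so the recovery in the real counts is not known.

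For each direction 5 genes are given with their level in every mouse, chosen as those of lowest unadjusted p whose genotypes did not overlap. The levels are CPM after TMM scaling, taken over the UMIs of tested genes only, and so stand higher than the CPM above. Every adjusted p was 0.999. *Auts2*, a transcriptional regulator of neurons and other cells, was at 390, 330 and 494 CPM in SCA1 and 138, 72.8 and 34.6 in WT (log2 fold change 2.10, SE 0.469). *Fgf13*, an intracellular FGF that binds sodium channels, was at 730, 1162 and 1357 against 522, 364 and 242 (log2 fold change 1.41, SE 0.380). *Mier1*, a chromatin repressor subunit, was at 352, 347 and 339 against 59.1, 146 and 173 (log2 fold change 1.66, SE 0.453). These values are tight among SCA1 mice for *Mier1* and spread for the others. In WT mice 2 and 3, *Auts2* rests on 2 and 1 UMIs, *Fgf13* on 10 and 7 and *Mier1* on 4 and 5. Single nuclei held 24 of the 64 *Auts2* UMIs of SCA1 mouse 3 and 59 of the 134 *Fgf13* UMIs of SCA1 mouse 2.

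*Olfm3*, a secreted synaptic protein, was at 378, 243 and 339 CPM in SCA1 and 138, 72.8 and 0 in WT (log2 fold change 2.00, SE 0.536). *Cacna1a*, the P/Q-type calcium channel, was at 466, 468 and 640 against 286, 182 and 104 (log2 fold change 1.36, SE 0.402). In both, the WT mice differed from each other by more than 2 times or included a 0. WT mice 2 and 3 held 2 and 0 UMIs of *Olfm3* and 5 and 3 of *Cacna1a*. A single nucleus held 32 of the 44 *Olfm3* UMIs of SCA1 mouse 3.

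Among lower values, *Ighm*, the immunoglobulin μ heavy chain, was at 25.2, 52.0 and 46.3 CPM in SCA1 and 59.1, 146 and 520 in WT (log2 fold change -2.44, SE 0.655). *Fam222b* was at 75.5, 78.1 and 154 against 217, 291 and 208 (log2 fold change -1.22, SE 0.485). *Smarcb1*, a core subunit of the SWI/SNF remodeller, was at 37.8, 34.7 and 38.6 against 108, 146 and 104 (log2 fold change -1.63, SE 0.691). *Zfp90* and *Kctd13* had log2 fold changes of -1.33 and -2.19. These genes rest on 17 to 71 UMIs over all members, so each WT value of mice 2 and 3 stands on 3 to 15 molecules.

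**Figure D4:**
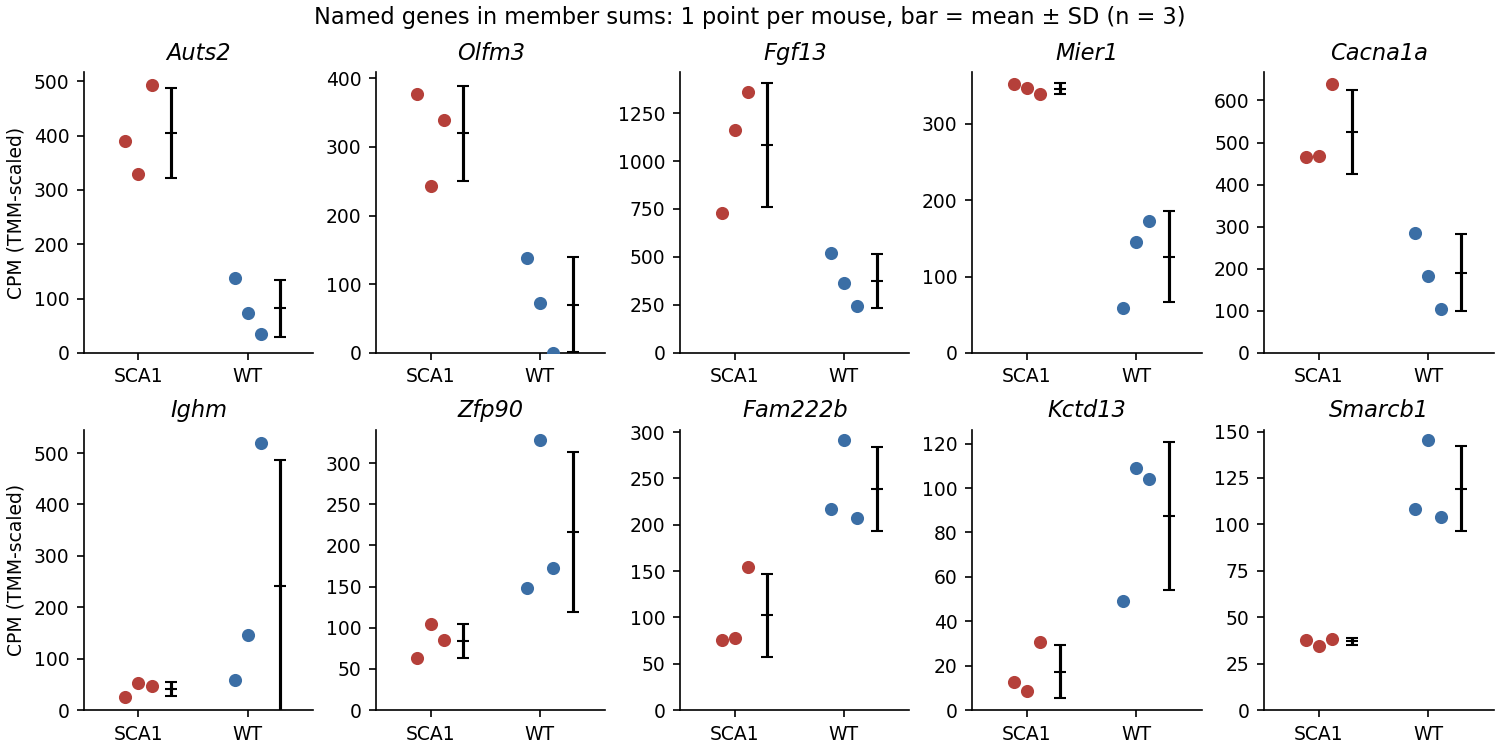
Level of the 10 named genes in the sums over members, in CPM over tested genes after TMM scaling. Each point is 1 mouse (SCA1 in red, WT in blue) and the bar shows the mean ± SD of 3 mice, cut at 0. The genotypes do not overlap in any panel, as the rule of choice required, and every adjusted p rounds to 0.999.

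No homeostatic gene passed. Of 24 genes 17 could be tested, 0 passed in either direction and the median log2 fold change was -0.07, against 0.03 for all genes tested. *Csf1r* was at 586, 548 and 863 CPM in SCA1 and 566, 754 and 690 in WT before scaling (log2 fold change 0.01). *P2ry12* had a log2 fold change of 0.43 and *Cx3cr1* of -0.18. *Siglech*, a microglial lectin, was lower in all SCA1 mice at 518, 455 and 559 against 632, 754 and 630 CPM, with a log2 fold change of -0.37 that did not pass. *Mertk*, a receptor for dying cells, was higher in all SCA1 mice with a log2 fold change of 0.23.

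Border macrophage genes did not pass either, with 9 of 16 tested and a median of -0.19. *Mrc1* was at 860, 956 and 1025 CPM in SCA1 and 908, 696 and 1380 in WT (log2 fold change -0.04). *Colec12* was above WT in all SCA1 mice after TMM scaling, at 290, 468 and 285 CPM against 256, 0 and 0 (log2 fold change 1.68), on 23, 54 and 37 UMIs against 26, 0 and 0, and WT mice 2 and 3 held only 2 and 4 border nuclei. *Ms4a6c* was above WT as well (log2 fold change 1.36), on 14, 17 and 12 UMIs against 6, 1 and 2, and *Ms4a7* had a log2 fold change of -1.16.

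Disease-associated genes gave 17 tested of 30, with a median of 0.12 and 10 above 0. *Igf1* was above WT in all SCA1 mice, at 20, 19 and 21 UMIs against 6, 3 and 0 (log2 fold change 1.84). Of its 69 UMIs 60 lay in border nuclei. *Cd9*, a tetraspanin, was also above WT in every SCA1 mouse (log2 fold change 0.71). *Apoe* was at 4992, 2294 and 1267 CPM against 4016, 1421 and 2251 in the order of the mice, with wide overlap (log2 fold change 0.12), and *Trem2*, the lipid receptor of activated microglia, had a log2 fold change of -0.21.

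Within the microglia-like class, which was chosen after values had been seen, levels are given as a description. *Apoe* was at 6301, 2458 and 937 CPM in SCA1 and 1617, 358 and 282 in WT after TMM scaling over the genes tested in that class. This base differs from that of the other *Apoe* levels given here. The genotypes overlapped over all mice, and mouse 1 was the highest of each genotype. Within each library set every SCA1 mouse lay above every WT mouse, and the log2 fold change with library set as a term was 2.17. These levels rest on 285, 165 and 77 UMIs in SCA1 and 87, 7 and 4 in WT. *Apoe* had the lowest adjusted p of the 2412 genes tested in that class (edgeR, 0.219) and did not pass. In all other nuclei of the same mice *Apoe* was at 862, 706 and 196 CPM in SCA1 and 842, 332 and 174 CPM in WT, again highest in mouse 1. The part of RNA from other cells in this value was not tested. *Lyz2* had 28, 23 and 5 UMIs in that class in SCA1 and 3, 1 and 0 in WT, and did not pass (edgeR adjusted p 0.9997). Over all members, 1 nucleus of SCA1 mouse 1 held 28 of its 172 UMIs. Another 28 lay in the 5 nuclei of SCA1 mice 2 and 3 rich in granule neuron markers, described below.

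The remaining pathways are given by counts, none of which holds a gene that passed. Genes named in them as above or below WT in all SCA1 mice stand beside 8.12% of all tested genes without overlap. Complement genes had 6 tested of 13 and a median of -0.36, with *C1qa*, *C1qb* and *C1qc*, the 3 chains of C1q, at log2 fold changes of -0.43, -0.40 and -0.32. Interferon response genes had 6 tested of 20 and a median of -0.43, and the receptor subunit *Ifnar2* was lower in all SCA1 mice (log2 fold change -0.58). Antigen presentation had 9 tested of 17 and a median of 0.34, with *H2-Eb1* at 1.19 and *Cd74* at 0.34. All 40 *H2-Eb1* and all 105 *Cd74* UMIs of SCA1 mouse 3 came from its 1 nucleus of 21148 UMIs. Each of these rests on few tested genes.

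Phagocytosis and lipid genes had 23 tested of 32 with a median of -0.12, where *Dock2*, a Rac activator, and *Gas6*, a ligand of *Mertk* and *Axl*, were above WT in all SCA1 mice (log2 fold changes 0.48 and 0.62). Transcription factors of the lineage had 21 tested of 28 with a median of -0.13. There *Stat3*, a mediator of cytokine signals, was above WT (log2 fold change 0.94), and *Irf8*, which microglia need to develop, was below (log2 fold change -0.60). *Bach1* was below as well (log2 fold change -0.77), on 6, 10 and 7 UMIs in SCA1 and 10, 4 and 4 in WT. *Spi1* had a log2 fold change of 0.24 and *Runx1* of -0.44.

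Purinergic receptors and channels had 10 tested of 20 with a median of -0.10. The ATP-gated channel *P2rx4* was above WT (log2 fold change 0.52), and the mechanosensitive channel *Piezo1* was below (log2 fold change -1.06). *Piezo1* rests on 7, 6 and 7 UMIs in SCA1 and 11, 3 and 6 in WT. Cytokine and chemokine genes had 10 of 32 with a median of -0.02, and pattern recognition genes 6 of 20 with a median of -0.11. The cytoskeleton and adhesion list had 21 of 24 with a median of 0.08, receptor kinases and phosphatases 17 of 20 with 0.01 and ligands of microglial receptors 7 of 14 with -0.04. Of the cell cycle list 0 of 16 genes could be tested.

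Granule neuron markers differed between mice in these sums. The 12 granule neuron markers summed to 1915, 2307 and 2733 CPM in SCA1 members and 2644, 1044 and 780 CPM in WT members, and averaged 14077 CPM in other nuclei. In 5 members, 3 of SCA1 mouse 2 and 2 of SCA1 mouse 3, these markers took 0.638 to 1.47% of the UMIs. In the other members they took at most 0.390%. The 5 nuclei held 8.01% of all member UMIs, but 66.4% of those of *Kcnip4* and 69.4% of those of *Kcnd2*, a pair of genes for the A-type potassium channel of granule neurons. They also held 58.0% of *Rbfox1*, a neuronal splicing factor. *Kcnd2* is itself 1 of the 12 markers and gave 403 of their 545 UMIs in these nuclei. Its share thus follows largely from how the 5 nuclei were chosen, which was done after values had been seen. Of the 10 markers tested in members, 2 had a log2 fold change above 0. The median was -0.07 and the maximum 1.97, that of *Kcnd2*. All 5 nuclei had UMIs of the microglia or border genes as well, and 4 were microglia-like, 1 of these by only 7 UMIs against 6.

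The calls also changed with single mice. Without SCA1 mouse 1 the test called 11 genes and without WT mouse 1 it called 33, of which 28 were higher in SCA1, and in both cases *Kcnip4* (log2 fold change 3.84 and 3.83) and *Kcnd2* (log2 fold change 4.11 and 4.09) led. Either omission leaves SCA1 mice 2 and 3 against WT mice 2 and 3, because the lone mouse of the first set then fits only the set term. With the 5 nuclei removed as well, both fits called 0 genes. Since these nuclei were chosen after values had been seen and all lie in SCA1 mice 2 and 3, this is a description and no test of their part in the calls. Genes differed in how far they moved. Without WT mouse 1, the removal took the log2 fold change of *Kcnip4* from 3.83 to 1.63 and of *Kcnd2* from 4.09 to 0.94. In the same fits *Fgf13* went from 2.10 to 2.19 and *Colec12* from 7.84 to 7.62, although neither passed any longer. The 5 nuclei held 25 of the 438 *Fgf13* UMIs and 17 of the 140 *Colec12* UMIs, and *Colec12* had 0 UMIs in WT mice 2 and 3, so that its fitted fold is no bound. *Kcnip4* without them was at 625, 1093 and 107 CPM in SCA1 and 828, 261 and 150 in WT. With all 6 mice, removing the 5 nuclei took the log2 fold change of *Auts2* from 2.10 to 1.69, of *Olfm3* from 2.00 to 1.29 and of *Cacna1a* from 1.36 to 1.07, while *Fgf13* went from 1.41 to 1.49 and *Mier1* from 1.66 to 1.77. As CPM of all UMIs, without TMM scaling, *Auts2* was then at 303, 123 and 221 in SCA1 and 102, 58.0 and 30.0 in WT, still without overlap. *Olfm3* was at 293, 61.6 and 45.8 against 102, 58.0 and 0, and there the genotypes overlapped.

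**Figure D5:**
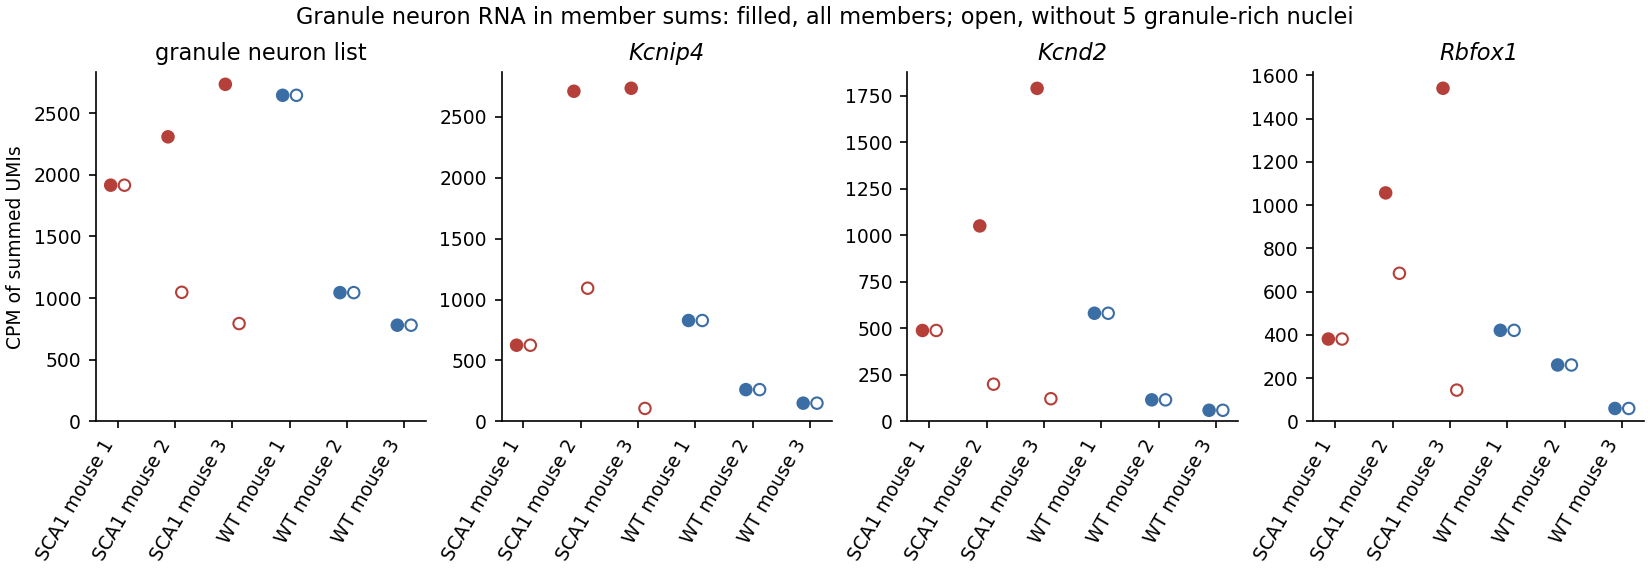
Summed level of 12 granule neuron markers and of 3 neuronal genes in members of each mouse, in CPM; filled points use all members and open points leave out the 5 members in which the markers took over 0.5% of UMIs (red, SCA1; blue, WT). In SCA1 mice 2 and 3 the open points for the marker list lie at 1047 and 793 CPM. This fall was fixed in advance, since the 5 members were chosen by that list. WT mice 2 and 3 were at 1044 and 780 CPM.

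RNA of other cell types was present too. Purkinje cell markers summed to 509 to 1749 CPM in SCA1 members and 840 to 3849 CPM in WT members, and all 6 that could be tested had negative log2 fold changes, with a median of -0.82 against -0.64 for 9 genes in other nuclei. Their transcription factor *Skor2* was at 0. Oligodendrocyte markers ranged over 385 to 1514 and 300 to 1423 CPM, those of Bergmann glia and astrocytes over 304 to 635 and 406 to 1133, of interneurons over 143 to 508 and 145 to 472, and of erythrocytes over 112 to 918 and 180 to 944. Fibroblast and choroid plexus markers were at 1084, 134 and 6.21 CPM in SCA1 and 79.9, 174 and 120 CPM in WT, and the choroid plexus gene *Ttr* had 95 of its 105 UMIs in SCA1 mouse 1. *Ttr* was also highest in the other nuclei of that mouse, at 664 CPM against 0.3 to 128 CPM in the rest. Endothelial and mural markers ran over 68.4 to 74.5 CPM in SCA1 and stood at 58.1, 0 and 0 CPM in WT. WT mice 2 and 3 have the shallowest sums, so their 0 does not settle whether the genotypes overlap there. Oligodendrocyte precursor markers ran over 6.21 to 66.9 and 0 to 160. The part of these RNAs in the comparison was not tested, and the removal of granule-rich nuclei above was no test either.

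The effect of genotype in members was set against that in all other nuclei, in 1 model with mouse as a term. In the other nuclei 1 of 20134 genes passed (0.00497%), the gene model *Gm12160*, at 433, 402 and 406 UMIs in SCA1 and 5, 1 and 2 in WT. There 390 genes (1.94%) had an unadjusted p under 0.05, and 764 (3.79%) did not overlap, with SCA1 above in 1.92% and below in 1.87% of all genes. The difference between members and other nuclei passed for 2 of 17101 genes (0.0117%), *Eda* and *St6galnac3*, both with an edgeR adjusted p of 0.0452. DESeq2 called 0. At an unadjusted p under 0.05 there were 511 (2.99%) in edgeR.

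For *Eda* and *St6galnac3* most member UMIs came from 1 nucleus each, and no fit left out that nucleus alone. *St6galnac3*, a sialyltransferase gene, had 1, 9 and 38 UMIs in SCA1 members and 0 in each WT mouse, and 34 of the 48 came from 1 nucleus of SCA1 mouse 3. In all, 37 lay in nuclei of neither class. The nuclei of neither class in SCA1 mouse 3 held 24 and 26 UMIs of the lymphocyte list. *Eda*, a ligand of the TNF family, had 0 UMIs in SCA1 members and 13, 1 and 0 in WT, 13 of them in 1 nucleus of WT mouse 1. The edgeR adjusted p of *St6galnac3* was 1 without SCA1 mouse 3, and that of *Eda* was 0.973 without WT mouse 1. In other nuclei *St6galnac3* was at 258, 183 and 272 CPM in SCA1 and 220, 209 and 240 in WT. The next genes by p were *Dpyd*, *Aff3* and *Tsr2*, none of which passed, and *Dpyd* likewise had 7 of its 8 UMIs in 1 nucleus.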

How the data were processed

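Nuclei of whole cerebella were sequenced in 1 library per mouse, and the authors deposited whole-number UMI counts by gene and nucleus, with a table of cell type labels and clusters. The submitters' processing notes name Cell Ranger 4.0.0, 5.0.1 and 6.0.1 without roles. Per the methods, the authors aligned reads with version 5.0.1 to mm10 plus the human *ATXN1* locus and counted introns as well as exons. They removed debris with DIEM and clustered with Seurat 4.0.4. The UMI threshold of DIEM was 1000, raised to 3000 for the samples of the first sequencing run only. No doublet removal is given in the sources used here, and none was done here.

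Counts of the members were summed per mouse, since nuclei are not replicates, and tested in edgeR 4.0.16 (quasi-likelihood, TMM, filterByExpr with a minimum count of 10 and total of 15, library set and genotype as terms, Benjamini-Hochberg threshold 0.05), with limma 3.58.1 and DESeq2 1.42.0 as alternatives, in R 4.3.3. The library set was read from library numbers in the names of the deposited tables and inferred to be the sequencing run. The summed depth was 33326 to 161011 UMIs. Intervals and zero-count limits (3 counts) cover counting error only. The difference from other nuclei was fitted over 12 sums with mouse as a term. Shares and depths were compared by exact permutation tests (SciPy 1.17.1). In counts simulated with 1 dispersion for all genes, the difference test recovered 21.4% of changes of 3.0 on the log2 scale.

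Named genes were those of the gene lists, the 5 largest changes in each direction that passed without overlap, filled by lowest unadjusted p, the 20 genes of highest ratio and the 5 lowest p of the difference. *Kcnip4*, *Rbfox1*, *Rbpj*, *Csmd3*, *Nav3*, *Atp8a2*, *Cdk8* and *Gm2682* were named after their values were seen. The members and lists were chosen with earlier results of these data known. *Clec7a*, *Mx1* and *Sting1* were not analysed here, and single values of some list genes are not reported here.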

Additional observations from a re-analysis of the deposited data

Results flagged for a closer look

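The test of the difference in genotype effect between members and all other nuclei passed for 2 genes. A single nucleus held 13 of the 14 member UMIs of *Eda*, and another held 34 of the 48 of *St6galnac3*. *Eda* had a fitted log2 difference of -13.44 and *St6galnac3* of 13.80, each with an edgeR adjusted p of 0.0452. The fitted sizes depend on sums of 0 and are no bounds. Over the alternatives the adjusted p of *Eda* ran from 0.0116 to 1 and that of *St6galnac3* from 0.0132 to 1. No group had the 4 samples that a check for outlying mice needs.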

How the results depend on the processing

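The share of nuclei kept its sign in every alternative run, none of which could reach a p under 0.1, with differences of 0.173 points for nuclei of at least 3000 UMIs (WT mouse 2 then had 0 members), 0.102 where the label was also the commonest of its cluster (SCA1 mouse 1 and WT mouse 3 then had 0) and 0.0211 to 0.165 when single mice were left out. The difference in median depth ran from -98.5 (without WT mouse 2) to 2049 UMIs when single mice were left out. Thinned to 1000 UMIs, nuclei with a UMI fell to 53.0% for *Csf1r*, 30.0% for *C1qb* and 55.4% for *Cx3cr1*.

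Genes that differed in members numbered 5 with no filter on low counts (*Kcnip4*, *Kcnd2*, *Rbfox1*, *Auts2*, *Gm2682*), 7 where the label was the commonest of its cluster (4 mice, led by *Cdk8*, *Cd74* and *Kcnip4*) and 0 to 33 when single mice were left out. The alternatives chosen after seeing the data (microglia-like nuclei, without granule-rich nuclei, without nuclei of neither class) gave 0. In other nuclei DESeq2 called 19 genes, and omitting single mice 0 to 1, with 0 without WT mouse 2. The difference test called 0 in DESeq2, 0 with no filter and 0 to 29 when single mice were left out, with 29 without WT mouse 1.

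Pairing of the mice by replicate number was not established: same-numbered deviations correlated by 0.359, 0.0775 and 0.331, not all above 0.1, although every mouse correlated best with its own number. A replicate block in place of library set called 0 genes in members and 30 in other nuclei. Of 339 values of single named genes under alternatives, 303 kept direction and side of the threshold, 22 newly passed, 14 no longer passed and 0 reversed. Depth limits WT mice 2 and 3 most.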
